A study of Rattus norvegicus with 82 samples.

Results

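Matrix metalloproteinases and their tissue inhibitors were followed in cardiomyocytes of pressure-loaded rat hearts. The 9 members were taken by gene symbol from a table of 17337 rat genes. They were the 4 inhibitors Timp1, Timp2, Timp3 and Timp4 and the 5 proteases Mmp2, Mmp9, Mmp14, Mmp15 and Mmp3. Their NCBI gene IDs in the deposited table are, in that order, 116510, 29543, 25358, 680130, 81686, 81687, 81707, 291848 and 171045. Each of 41 animals, all F1 offspring of Wistar Kyoto mothers and Lewis fathers, gave 1 RNA-seq library per ventricle, right (RV) and left (LV), and so 82 libraries in all. A clip that did not narrow the vessel at surgery was placed around the pulmonary artery (PAB) to load the RV or around the aorta (AOB) to load the LV, and Sham animals served as controls. Compensated hypertrophy (H) was sampled 7 weeks after surgery in Sham-H (7 animals), AOB-H (6 animals) and PAB-H (6 animals), at a labelled age of 11 weeks. Decompensated failure (F) was sampled after 26 weeks in Sham-F (9 animals) and AOB-F (7 animals), labelled 31 weeks old, and after 22 weeks in PAB-F (6 animals), labelled 28 weeks old. The protocol text in the labels and the study's methods give other ages at surgery than these labels, so the ages are printed only as labelled. By these labels PAB-F animals were younger than the Sham-F animals they were compared with, and what the age gap adds to any difference was not tested. Both sexes were in every group, in proportions that differed between groups.

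Cardiomyocytes were released by collagenase perfusion and enriched by centrifugation, without a sort, so RNA of other heart cells could be in each library. The 9 cardiomyocyte transcripts chosen as markers took 6.07% to 14.3% of the counted reads. Fibroblast markers took 0.0152% to 0.3%, endothelial markers 0.0606% to 0.496%, mural cell markers 0.03% to 0.181% and macrophage markers 0.00189% to 0.0528%. No neutrophil marker of 5 passed the count filter, with at most 66 reads (Csf3r) in a library and no read of Mpo in 79 of 82. In such samples a larger number of cells of 1 type cannot be told apart from more RNA in each of them. Between 6675287 and 19665439 reads were counted on genes per library.

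Metalloproteinases are zinc-dependent enzymes that cut collagens, gelatin and other parts of the extracellular matrix, as well as receptors and growth factors at the cell surface. Most are made as inactive proenzymes, and TIMP proteins block the active site of the mature enzyme. Mmp2 and Mmp9 encode the gelatinases, Mmp3 encodes stromelysin, and Mmp14 and Mmp15 encode enzymes anchored in the plasma membrane. TIMP2 has a further role, since together with MMP14 it draws pro-MMP2 to the membrane for activation. TIMP3 is held in the matrix, TIMP4 is known for its expression in the heart, and TIMP1 is the inducible member of the family. In the loaded heart the balance of both groups is studied for its bearing on matrix turnover and fibrosis.

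The promoters of 3 members are shown because their genes stood at different ends of the data, with Timp1 the most variable inhibitor, Timp3 the most abundant and steady one, and Mmp3 almost without reads. Each is the run of 250 bases before the RefSeq start of the gene, on the gene's own strand, in assembly GRCr8, which is not the build the counts were made on. Timp1 lies at chrX:3771123-3771372 (minus strand), Timp3 at chr7:19459559-19459808 (minus strand) and Mmp3 at chr8:12925031-12925280 (plus strand). Capitals mark matches, on either strand, to the AP-1 site TGANTCA, its variant TGAGTAA, the Ets core AGGAAG, the GC box GGGCGG and the TATA box TATAAA.
Timp1: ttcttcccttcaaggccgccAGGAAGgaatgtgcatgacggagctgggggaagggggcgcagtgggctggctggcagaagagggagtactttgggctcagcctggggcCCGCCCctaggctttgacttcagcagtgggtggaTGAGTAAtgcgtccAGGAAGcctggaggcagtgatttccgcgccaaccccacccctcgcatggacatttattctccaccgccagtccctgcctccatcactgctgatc
Timp3: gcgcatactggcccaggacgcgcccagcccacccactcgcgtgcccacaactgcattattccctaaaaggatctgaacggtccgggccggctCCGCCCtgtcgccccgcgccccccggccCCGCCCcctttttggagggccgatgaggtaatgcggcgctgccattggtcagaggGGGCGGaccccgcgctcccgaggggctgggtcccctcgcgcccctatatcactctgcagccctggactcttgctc
Mmp3: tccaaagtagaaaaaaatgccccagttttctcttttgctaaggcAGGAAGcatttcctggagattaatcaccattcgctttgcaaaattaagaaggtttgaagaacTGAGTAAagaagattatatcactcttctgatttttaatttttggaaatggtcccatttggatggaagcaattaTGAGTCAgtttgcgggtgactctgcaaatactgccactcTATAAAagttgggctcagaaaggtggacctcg
Timp1 held the AP-1 variant 108 to 102 bases before the start, Ets cores 94 to 89 and 230 to 225 bases before it, and on the opposite strand 1 GC box. Timp3 held 3 GC boxes and none of the other motifs, and its window was 69.6% G and C. Mmp3 held the AP-1 site, the AP-1 variant, an Ets core and a TATA box 32 to 27 bases before the start, in a window of 38.8% G and C. Of 33469 rat promoter windows of the same length, 6.34% held the AP-1 site, 2.38% its variant, 29.5% the Ets core, 30.5% the GC box and 12.9% the TATA box. Promoter entries were matched for 6 of the 9 members, the other 3 being Mmp2, Mmp9 and Mmp14. A match describes letters in this window and not a bound factor.

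Levels of different genes were compared as FPKM, the authors' fragments scaled by transcript length and sequencing depth. Timp3 and Timp2 were the highest, with medians over all 82 libraries of 122.6 and 85.68 FPKM, and Timp3 stood above Timp2 in 72 of 82 libraries. Mmp15 followed at a median of 53.31 FPKM and was below Timp2 in all 82 libraries. Timp4 (22.07 FPKM) was above Mmp2 (12.92 FPKM) in 76 libraries and above Mmp15 in 16. Mmp2 was above Mmp14 (5.526 FPKM) in all 82 libraries, while Mmp14 and Timp1 (3.667 FPKM) were not cleanly ordered, since Timp1 was the higher of the pair in 21 libraries. Timp3 and Timp2 led the family in both ventricles, with medians of 135.1 and 103.5 FPKM in the LV and 112.8 and 78.1 FPKM in the RV, and Mmp15 was the highest of the proteases.

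**Figure D1:**
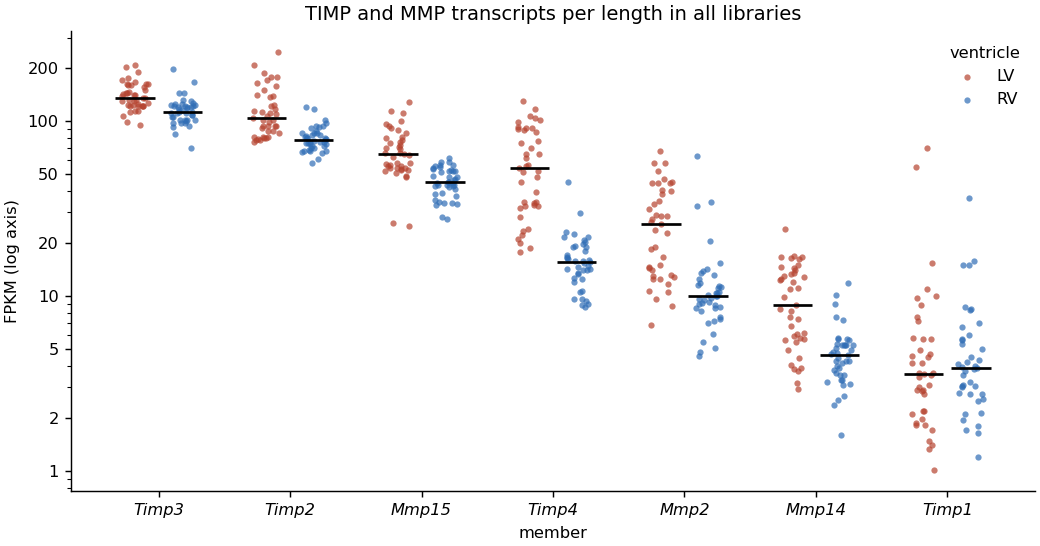
Levels per transcript length (FPKM, log axis) of the 7 members above the count filter in 82 libraries, with 1 point per library, LV red and RV blue, and the median of each ventricle as a black line. Timp3 and Timp2 lie on top, and the LV medians of Timp4, Mmp2 and Mmp14 (53.7, 25.7 and 8.91 FPKM) lie above the RV medians (15.6, 9.95 and 4.62 FPKM).

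Mmp9 and Mmp3 were too low for a test across groups. Mmp9 had no read in 39 of 82 libraries and at most 45 reads. Mmp3 had no read in 78 libraries and at most 2 reads in the other 4, and a count of 0 allows up to 3 reads by counting error alone. The 7 other members were among the 11954 genes tested. Below, a normalized count is a raw count scaled to a common library size of 13279120, a fold change is on the log2 scale with its standard error (SE), and a gene is called when its Benjamini-Hochberg adjusted p in edgeR's quasi-likelihood test lies under 0.05 over all 11954 genes. A second rule applies the study's cut-offs to the edgeR values, whereas the study used DESeq2 with shrunken fold changes. Meeting the rule here is therefore not the same as meeting it in the study. This rule, named the study's criteria below, asks for a log2 fold change beyond 1 and a p of 0.01 or lower before adjustment. It also asks for over 50 normalized counts on average in the banded group (in either group where shams are compared). The banded groups of 1 stage and ventricle share their sham libraries.

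The RV under compensated load was compared with its sham group to see which members moved while the ventricle still coped. Mmp2, the gelatinase A gene, was the member called, where 538 of all genes (4.5%) were. Its normalized counts in RV PAB-H were 1436, 2703, 565.2, 597.7, 452.4 and 365.5, against 198.4 to 514.8 (median 359.1) in RV Sham-H. The replicates 1 and 2 were far above the rest, 4 of 6 libraries exceeded every sham library, and the groups overlapped. The log2 fold change was 1.43 (SE 0.34, n = 6 and 7, edgeR adjusted p = 0.0107). Without PAB-H replicate 2 it was 0.85 (SE 0.32) with adjusted p = 0.306 in edgeR, so the call rested on that animal, while the direction stayed. That fit called 0.192% of all genes as higher, which also bears on the adjusted p.

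Timp1, the inducible inhibitor, had normalized counts of 87.5, 156.3, 85.5, 67.2, 32.2 and 30.9 in RV PAB-H and of 11.99 to 44.6 (median 30.5) in RV Sham-H. Here too replicate 2 was the highest, and the replicates 5 and 6, both female, lay inside the sham range. The log2 fold change of 1.44 (SE 0.52) met the study's criteria, which 1.82% of genes did, but was not called by edgeR (adjusted p = 0.0821). Timp1 was called by edgeR without PAB-H replicate 6 (1.60, adjusted p = 0.0458). Fitted to the compared groups alone, edgeR called Timp1 (1.45, adjusted p = 0.0261) and Mmp15 (-0.27, adjusted p = 0.0243) beside Mmp2, which made 3 of 7 members. The share of all genes called in that smaller fit was not recorded, so nothing is read from the count. The other log2 fold changes were 0.74 for Timp4, 0.70 for Mmp14, 0.25 for Timp2, 0.23 for Timp3 and -0.27 for Mmp15, with edgeR adjusted p from 0.143 to 0.412. For Mmp15 the 95% interval of the difference ran from -0.64 to 0.09. The median over the 7 members was 0.70, against 0.00434 over all genes tested.

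In these RV PAB-H libraries markers of fibroblasts moved with Mmp2. All 9 tested fibroblast markers were higher than in RV Sham-H by edgeR, at a median log2 fold change of 1.30, where 3.91% of all genes were higher. Several of these markers, such as Col1a1, Col3a1 and Pdgfra, are among the PAB-regulated genes the study reported from the same libraries. Their count is therefore not independent of that earlier result. Without PAB-H replicate 2, a choice made after seeing the data, edgeR called 0 of the 9 at a median of 0.76, and 0.192% of all genes as higher. The summed fibroblast share ran from 0.0358% to 0.3% in RV PAB-H and from 0.024% to 0.0462% in RV Sham-H, with 0.144% in replicate 1 and the highest value in replicate 2. Their part in the Mmp2 and Timp1 values was not tested. Of the other lists 1 of 7 endothelial, 1 of 7 mural, 0 of 8 macrophage and 0 of 9 cardiomyocyte markers were called. Males alone gave a log2 fold change of Mmp2 of 1.73 (edgeR adjusted p = 0.0158), and females alone 0.16 (edgeR adjusted p = 1), with 2 banded females, and the difference between the sexes was not tested.

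In the failing RV both Timp1 and Mmp2 were higher than in RV Sham-F. Timp1 had normalized counts of 369.9, 60.5, 72.2, 39.3, 50.5 and 21.6 in RV PAB-F and of 19.5 to 57.4 (median 27.5) in RV Sham-F. Replicate 1 stood apart from the other 5, 3 of 6 libraries exceeded every sham library, and the groups overlapped. This gave a log2 fold change of 1.63 (SE 0.48, n = 6 and 9, edgeR adjusted p = 0.017). Without PAB-F replicate 1 it was 0.58 with edgeR adjusted p = 0.548. Leaving this animal out therefore ended the call and lowered the value by more than 1 log2 unit.

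Mmp2 had normalized counts of 1369, 645.0, 870.1, 432.2, 377.1 and 414.1 in RV PAB-F and of 185.1 to 549.9 (median 289.5) in RV Sham-F. All 6 libraries lay above the sham median, and 3 exceeded every sham library. The sexes did not overlap in RV Sham-F, with 185.1 to 289.5 in 5 females and 352.1 to 549.9 in 4 males. In RV PAB-F 2 females had 377.1 to 414.1 and 4 males 432.2 to 1369, so the groups differ in their mix of sexes. The log2 fold change was 1.09 (SE 0.32, edgeR adjusted p = 0.0181), and 0.76 without PAB-F replicate 1 (edgeR adjusted p = 0.21). In this comparison 11.1% of genes were called, 7.66% of all genes as higher, and the study's criteria, met by both genes, took 1.9%. Males alone gave log2 fold changes of 1.72 for Timp1 and 0.92 for Mmp2, and females alone 0.47 and 0.77, with edgeR adjusted p of 0.0617, 0.195, 0.798 and 0.375 in that order.

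For the abundant inhibitors the differences in the failing RV were smaller and not called. Timp3 ran from 2516 to 4010 normalized counts (median 2976) in RV PAB-F and from 1963 to 2923 (median 2389) in RV Sham-F, and 5 of 6 banded libraries exceeded every sham library. Its log2 fold change of 0.37 (SE 0.13) had an edgeR adjusted p of 0.0513, just past the limit. Timp2 gave 0.38 (SE 0.15, edgeR adjusted p = 0.0795), Mmp14 0.61 (edgeR adjusted p = 0.154), Timp4 0.17 (edgeR adjusted p = 0.744) and Mmp15 -0.27 (edgeR adjusted p = 0.304). When only the 2 compared groups were fitted, Timp2, Timp3 and Mmp14 were called as well, which made 5 of 7 members. For that fit too the share of all genes called was not recorded, and nothing is read from the higher count. The median over the members was 0.38, against 0.0162 over all genes.

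Fibroblast and macrophage markers were higher in the failing RV too. By the same test 5 of 9 fibroblast markers, 4 of 8 macrophage, 2 of 7 endothelial, 2 of 7 mural and 1 of 9 cardiomyocyte markers were higher than in RV Sham-F. Of all genes 7.66% were higher in this comparison. The cardiomyocyte count lies near that share, and nothing is read from it. Several fibroblast markers are among the study's PAB-regulated genes here too, so their count is not independent of that result. Without PAB-F replicate 1 edgeR called 1 fibroblast and 1 endothelial marker and none of the other lists, and 2.01% of all genes as higher. Replicate 1, the highest for Timp1 and Mmp2, also had the highest fibroblast share (0.199%) and macrophage share (0.0271%) of its group. The group medians were 0.0514% and 0.00652%, against 0.0243% and 0.00347% in RV Sham-F. Their part in the results was not tested.

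**Figure D2:**
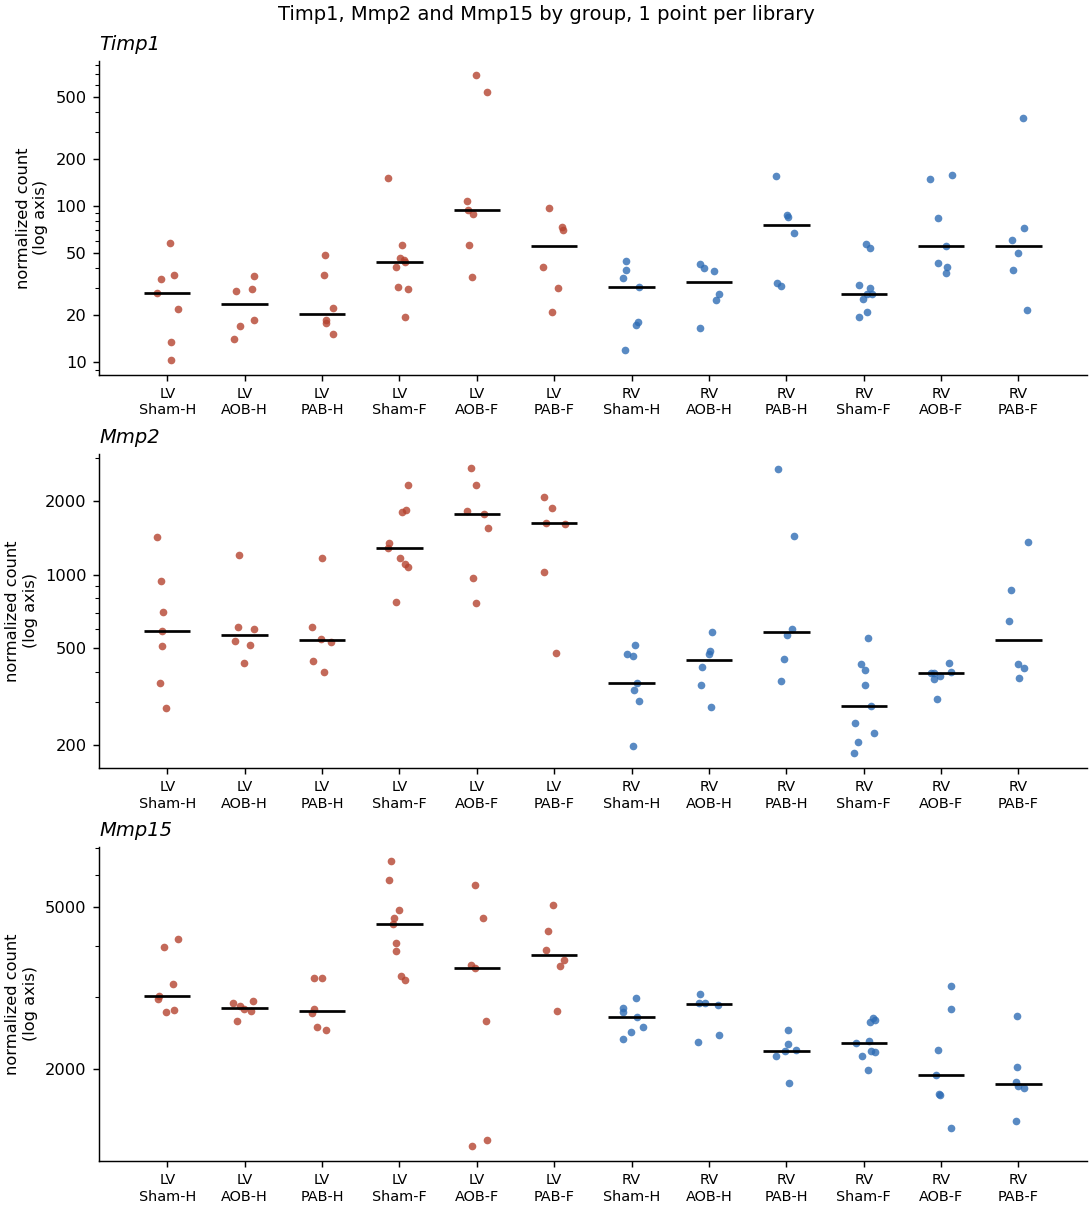
Normalized counts (log axis) of Timp1, Mmp2 and Mmp15 in the 12 groups, 1 point per library with the group median as a line, LV red and RV blue. The Timp1 values of LV AOB-F replicates 6 and 7 (689.6 and 542.6) and of RV PAB-F replicate 1 (369.9) stand above all other libraries, and the Mmp15 values of the same LV AOB-F replicates lie below the rest of their group.

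The LV under aortic load was compared in the same way. In compensated hypertrophy no member was called, at 0 of 7 with an unadjusted p under 0.05 and 0 by DESeq2, where 2 of all genes tested (0.0167%) were. The log2 fold changes lay between -0.31 for Timp1 and 0.03 for Timp3. Mmp2 gave -0.09 with a 95% interval from -0.77 to 0.59.

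In the failing LV Timp1 was higher and Mmp15, a membrane-anchored protease, was lower than in LV Sham-F. Timp1 had normalized counts of 89.2, 108.7, 94.8, 56.2, 34.96, 689.6 and 542.6 in LV AOB-F, against 19.6 to 151.7 (median 44.2) in LV Sham-F. Its replicates 6 and 7 were several times above all others, and the remaining 5 lay within the sham range. The top of that range was a single library, LV Sham-F replicate 4, and the next sham library was at 56.8. The values 89.2, 108.7 and 94.8 of LV AOB-F lay above that next library. This gave a log2 fold change of 2.15 (SE 0.44, n = 7 and 9, edgeR adjusted p = 0.000926). Without both animals, a choice made after seeing the data, it was 0.57 with edgeR adjusted p = 0.446, while leaving out 1 animal at a time gave 1.57 to 2.55 and kept the call. In this comparison 12.9% of genes were called and 1.21% met the study's criteria, Timp1 among them.

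Mmp15 had normalized counts of 3609, 3543, 4696, 5676, 2618, 1333 and 1285 in LV AOB-F, against 3314 to 6481 (median 4532) in LV Sham-F. The replicates 5, 6 and 7, the 3 females of the group, lay below every sham library, and 6 and 7 were the lowest. For Mmp15 the log2 fold change was -0.49 (SE 0.16, edgeR adjusted p = 0.0366), and -0.18 without both animals (edgeR adjusted p = 0.501). Leaving out 1 animal at a time gave log2 fold changes from -0.68 to -0.35, and the call was lost without Sham-F replicates 1, 2, 6 or 7 or AOB-F replicates 2, 5, 6 or 7. Fitted to the 2 compared groups alone, neither Timp1 (edgeR adjusted p = 0.0886) nor Mmp15 (edgeR adjusted p = 0.26) was called.

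The 5 other members showed no call in the failing LV. The log2 fold changes were 0.35 for Mmp14, 0.27 for Mmp2, 0.09 for Timp2, 0.01 for Timp3 and -0.28 for Timp4, with edgeR adjusted p from 0.398 to 0.965. For Timp3 the interval from -0.24 to 0.26 was narrow, and for Mmp2 it ran from -0.33 to 0.87. The median over the 7 members was 0.09, against 0.0378 over all genes. In this comparison 4 of 8 macrophage markers were higher, as were 1 of 9 fibroblast, 1 of 7 endothelial and 1 of 7 mural markers, where 8.54% of all genes were higher. The fibroblast, endothelial and mural counts lie near that share, and nothing is read from them. Without the AOB-F animals 6 and 7 edgeR called 0 of the 8 macrophage markers, and 1.91% of all genes as higher. The part of these markers in the Timp1 and Mmp15 values was not tested.

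**Figure D3:**
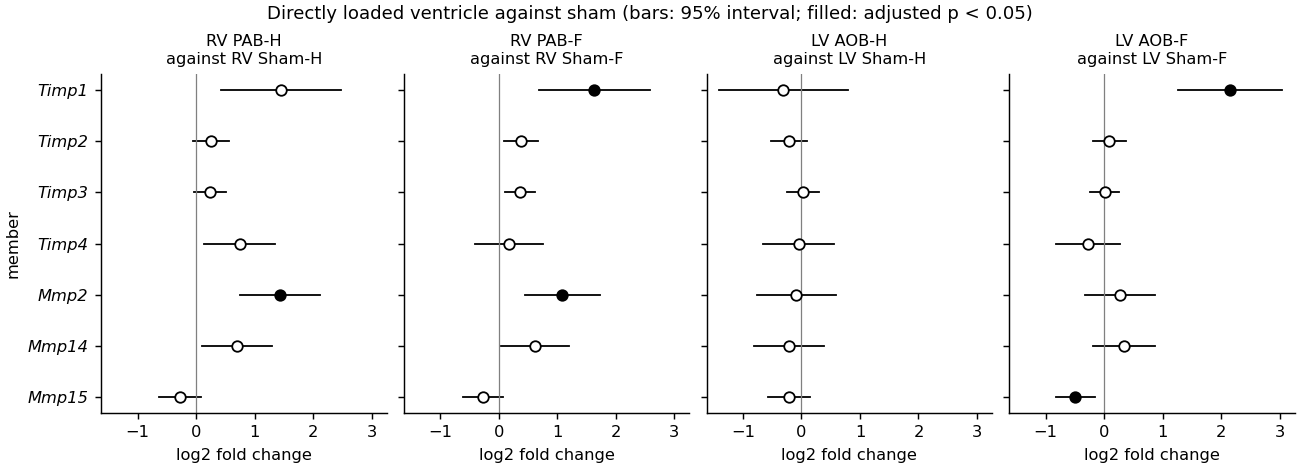
Log2 fold changes of the 7 tested members in the directly loaded ventricle against its sham group, with 95% intervals, filled where the adjusted p was under 0.05. Mmp2 is called in both RV comparisons, Timp1 in both failing ventricles and Mmp15 in the failing LV, and none in LV AOB-H.

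The AOB-F animals 6 and 7 stood apart for 3 members in the LV. Mmp9, the gelatinase B gene, had 26.2 and 42.4 normalized counts in their LV libraries, against 0 to 7.26 in the other 5 of LV AOB-F and 0 to 4.38 in LV Sham-F. Macrophage markers took 0.0437% and 0.0528% of the reads in these libraries, against 0.00586% to 0.0253% in the other 5, and neutrophil markers 0.000646% and 0.000913%, against at most 6.8e-05% in the other 5. In their RV libraries, which were not directly loaded, Timp1 was at 149.5 and 158.6 normalized counts and Mmp9 at 5.94 and 9.40. Both values of Timp1 were above all other RV AOB-F libraries, which lay between 37.5 and 83.6. Both animals were female, as was replicate 5, which had the lowest Timp1 of LV AOB-F. In the failing LV, females alone gave log2 fold changes of 3.63 for Timp1 (edgeR adjusted p = 1.54e-05) and -1.26 for Mmp15 (edgeR adjusted p = 4.71e-05), males alone 0.23 and -0.20 (edgeR adjusted p = 0.963 and 0.892), and the difference between the sexes was not tested.

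The ventricle not directly loaded was examined for members that move with disease elsewhere in the heart. No member was called in the LV after PAB or in the RV after AOB. For LV PAB-H, LV PAB-F and RV AOB-H 0% of genes were called, no member had an unadjusted p under 0.05, and DESeq2 called 0 members. In RV AOB-F 0.0669% of genes were called. There Timp1 had normalized counts of 41.0, 83.6, 56.05, 37.5, 43.2, 149.5 and 158.6, against 19.5 to 57.4 in RV Sham-F. Its log2 fold change of 1.32 (SE 0.46) met the study's criteria, as 0.259% of genes did, with an edgeR adjusted p of 0.691. It was the 1 member with an unadjusted p under 0.05 there, and DESeq2 called 0. All other log2 fold changes in these 4 comparisons lay between -0.25 and 0.37.

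The responses themselves were then compared. These values come from the fit by group, which does not pair the 2 ventricles of an animal. The response of Mmp2 to PAB-H was 1.59 log2 units larger in the RV than in the LV (SE 0.48, interval 0.63 to 2.55). Its unadjusted p in edgeR was 0.00151 and its adjusted p 0.398. The response of Timp1 to PAB-F was 1.54 larger in the RV (interval 0.19 to 2.89, edgeR adjusted p = 0.337), and that of Mmp2 1.05 larger (edgeR adjusted p = 0.331). No member was called for PAB-H, where 3 of 7 had an unadjusted p under 0.05, for PAB-F, where 2 had, or for AOB-F, where 0 had. The share of all genes called was 0% for PAB-H, 0.351% for PAB-F and 0% for the AOB-F response in the LV against the RV. DESeq2 called no member in any of the 3. With the animal as a block edgeR called no member either, where 0.0418%, 2.92% and 0.00837% of genes were called in that order.

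A difference between stages or between failing ventricles was not called either. Mmp2 responded to PAB by 0.34 log2 units less in failure than in hypertrophy, with an interval from -1.28 to 0.59, and Timp1 by 0.19 more, with an interval from -1.22 to 1.60. No gene of all tested (0%) was called for that difference. Between the RV upon PAB and the LV upon AOB at failure 3.15% of genes were called. Mmp2 differed there by 0.82 (interval -0.07 to 1.70), Timp3 by 0.36 (interval -0.002 to 0.72) and Timp1 by -0.52 (interval -1.83 to 0.79), with edgeR adjusted p of 0.264, 0.226 and 0.656. In both differences 0 of 7 members had an unadjusted p under 0.05 and DESeq2 called 0.

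Between the ventricles of sham animals 1 member was called at the younger age and 6 at the older one. In Sham-H this was Timp4, the inhibitor known from the heart. Its normalized counts were 197.9 to 385.1 (median 320.0) in the RV and 429.9 to 1494 (median 759.6) in the LV, with no overlap, and the RV was lower in 7 of 7 animals. The difference was -1.42 on the log2 scale (SE 0.30, edgeR adjusted p = 0.000657). In this comparison 21% of genes were called, and 4.59% did not overlap between the groups. Mmp2 was lower in the RV of 7 of 7 animals as well, at -0.86 (SE 0.33, edgeR adjusted p = 0.0506). With the animal as a block, which joins both ventricles of 1 heart, Timp4, Mmp2 (-0.74, adjusted p = 0.0145) and Timp3 (-0.20, adjusted p = 0.0492) were called by edgeR, where 32.5% of genes were. Markers of vessel cells were lower in the same RV libraries, with 5 of 7 endothelial markers (median log2 fold change -0.963) and 4 of 7 mural markers (median -0.62) called, against 1 of 9 fibroblast, 0 of 8 macrophage and 0 of 9 cardiomyocyte markers and 11.4% of all genes. The endothelial share had a median of 0.0812% in RV Sham-H and 0.153% in LV Sham-H. Their part in the Timp4 and Mmp2 differences was not tested.

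In Sham-F, 6 of 7 members were lower in the RV than in the LV. This has to be read against 74.3% of all genes called, 38.6% as lower in the RV. Timp4 had 217.8 to 506.2 normalized counts in the RV and 1309 to 2951 in the LV, a log2 fold change of -2.44 (SE 0.27, edgeR adjusted p = 1.59e-12). Mmp2 had 185.1 to 549.9 in the RV and 775.3 to 2335 in the LV, a log2 fold change of -2.14 (SE 0.30). Mmp14 had 52.6 to 176.0 and 192.8 to 554.7, a log2 fold change of -1.77 (SE 0.26).

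Smaller differences were seen for the abundant members. Mmp15 was lower by 0.96 on the log2 scale (SE 0.15), Timp2 by 0.95 (SE 0.13) and Timp3 by 0.48 (SE 0.12), each in 9 of 9 animals. Timp1 gave -0.67 (SE 0.44, edgeR adjusted p = 0.164) and was lower in the RV of 6 of 9 animals. Groups did not overlap for Timp2, Timp4, Mmp2, Mmp14 and Mmp15, as was so for 41.8% of all genes. The median over the members was -0.96, against -0.0693 over all genes.

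**Figure D4:**
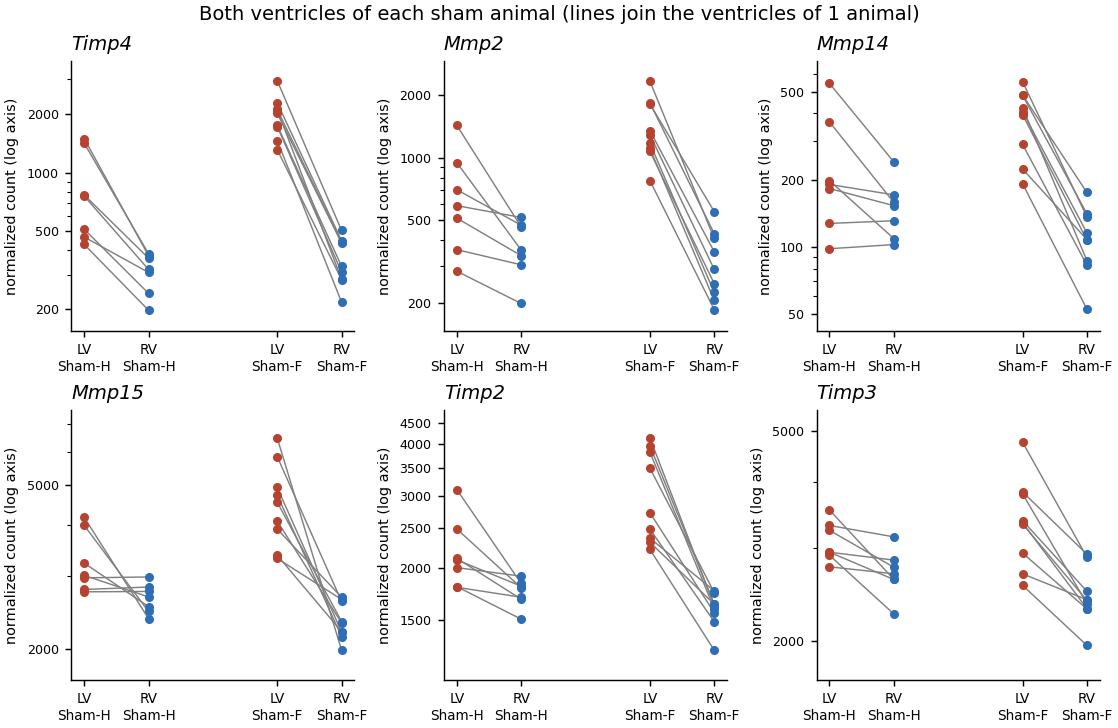
Normalized counts (log axis) of 6 members in the LV (red) and RV (blue) of 7 Sham-H and 9 Sham-F animals, with a line joining both ventricles of each animal. In Sham-F every line falls from LV to RV, and the Timp4 groups do not overlap at either age.

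Between the sham ages members were called in the LV alone. In LV Sham-F 5 of 7 members were higher than in LV Sham-H, where 57.4% of genes were called, 27.8% as higher. The log2 fold changes were 1.23 for Timp4 (SE 0.28, edgeR adjusted p = 0.000185), 1.04 for Mmp2 (SE 0.31, edgeR adjusted p = 0.00358), 0.64 for Mmp14, 0.48 for Mmp15 and 0.47 for Timp2. Mmp14 was the least stable of them, since its call was lost in 11 of 16 fits that each left out 1 animal. Timp1 gave 0.82 (edgeR adjusted p = 0.129) and Timp3 0.14 (edgeR adjusted p = 0.349). Markers of other cells were called as higher in LV Sham-F as well, 5 of 7 mural, 4 of 8 macrophage, 3 of 7 endothelial and 3 of 9 fibroblast, while 1 endothelial and 1 fibroblast marker were lower. Of 9 cardiomyocyte markers 2 were higher and 4 lower. In this contrast 27.8% of all genes were called as higher and 29.6% as lower. The endothelial, fibroblast and cardiomyocyte counts lie near those shares, and nothing is read from them. The endothelial share had a median of 0.153% in LV Sham-H and 0.303% in LV Sham-F, and the cardiomyocyte share 12.5% and 9.17%. Their part in the members' values was not tested. In the RV no member was called between the sham ages, none had an unadjusted p under 0.05, DESeq2 called 0, and 0.0502% of genes were called.

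The difference between the ventricles in this age contrast was called for 5 members, all larger in the LV. It was 1.276 for Mmp2 (SE 0.44, edgeR adjusted p = 0.0159), 1.09 for Mmp14, 1.02 for Timp4, 0.66 for Mmp15 and 0.61 for Timp2. Leaving out 1 animal at a time ended the call of Timp4 in 5 of 16 cases and that of Mmp15 without Sham-F replicate 2. Of all genes 41.6% were called, 18.6% as larger in the LV. With the animal as a block Timp3 (0.27, edgeR adjusted p = 0.0315) was called too, among 49.8% of genes. The sham groups differ in age and in time since surgery alike, and these cannot be told apart.

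Markers of other cells were also called between the Sham-F ventricles. The test called 6 of 7 endothelial, 5 of 7 mural, 5 of 9 fibroblast and 4 of 8 macrophage markers as lower in the RV, and the other endothelial marker as higher, where 38.6% of all genes were lower and 35.6% higher. The fibroblast and macrophage counts lie near that background, and nothing is read from them. Of 9 cardiomyocyte markers 4 were higher and 2 lower. The endothelial share had a median of 0.303% in LV Sham-F and 0.0803% in RV Sham-F, and the cardiomyocyte share 9.17% and 12.3%. Their part in the members' differences was not tested.

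The members followed the marker shares to very different degrees. As deviations from the group mean over 82 libraries, which hold 41 animals, Mmp2 had a Pearson r of 0.903 with the fibroblast share and 0.855 with the mural share. Mmp14 had its largest value with the mural share (0.795), Timp4 with the endothelial share (0.651), and Timp1 with the macrophage share (0.804). Timp3 and Timp2 did not exceed 0.547 with any list. Mmp15 differed in sign, at 0.403 with the cardiomyocyte share, -0.379 with macrophages and 0.08 with fibroblasts. These are descriptions of libraries in which genes and markers share 1 read total.

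**Figure D5:**
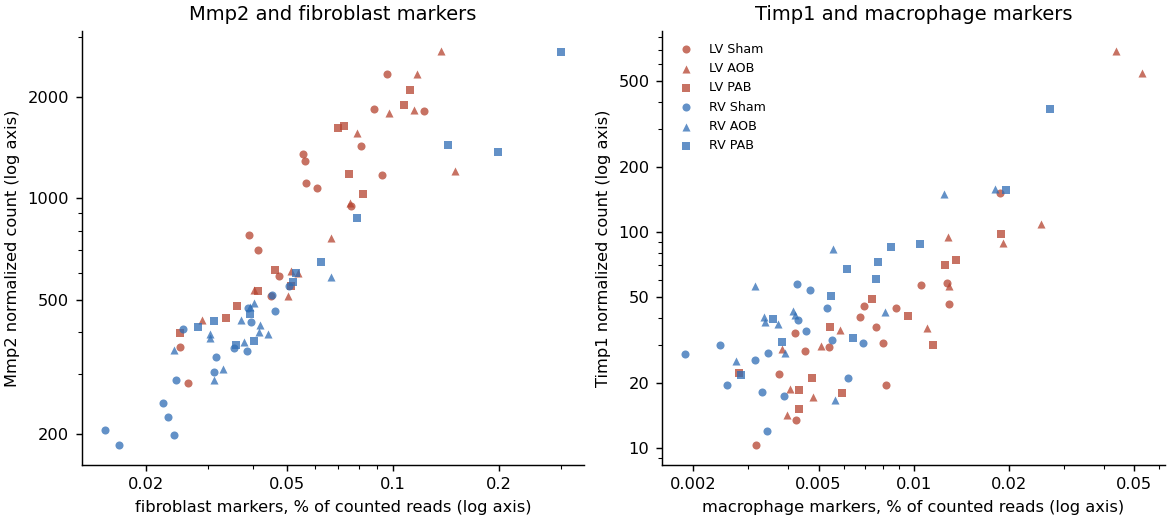
Mmp2 against the summed fibroblast markers and Timp1 against the summed macrophage markers (normalized count against percent of counted reads, both axes log), 1 point per library, LV red and RV blue, with circles for Sham, triangles for AOB and squares for PAB. Mmp2 rises with the fibroblast share in both ventricles, and the 3 highest Timp1 values lie at macrophage shares of 0.0271% and more.

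Among the members, Mmp2 and Mmp14 varied most alike, with a Pearson r of 0.891 of log2 CPM (depth-scaled counts) over the 82 libraries and 0.737 within groups. Timp4 and Mmp2 followed at 0.831 and 0.660. Timp1 and Mmp15 had negative values, at -0.312 and, within groups, -0.446, and by rank the value over the 82 libraries was weaker (Spearman rho -0.137). Over all genes tested, those most like Mmp2 were Col6a2 (r = 0.967), a collagen VI chain, Lrp1 (0.967), an endocytic receptor that clears metalloproteinases, and Gpx3 (0.960). Timp1 was most like Lyz2 (0.825), a macrophage lysozyme, Spon1 (0.824) and Plau (0.824), the urokinase that activates plasminogen. By rank Lyz2 came below the other 2, with a Spearman rho of 0.675 against 0.772 for Spon1 and 0.769 for Plau. Timp4 was most like Rgcc (0.956), Hpcal1 (0.951) and Ppm1f (0.945).

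The remaining members had other companions. Mmp14 was most like Rhoj (0.926), Lrp1 (0.915) and Clip2 (0.911). Mmp15 was most like Epn1 (0.908), Rxrb (0.906) and Smtn (0.9), Timp2 most like Ltbp3 (0.909), Cygb (0.907) and Rps6ka4 (0.901), and Timp3 most like F2r (0.783), Podxl (0.770) and Fndc1 (0.769). The values of Timp3 were the lowest of the 7 members.

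The summed inhibitors exceeded the summed proteases in all 82 libraries. The ratio of the summed TIMP to the summed MMP FPKM had group medians from 2.94 in LV PAB-F to 4.21 in RV PAB-F. In RV PAB-F it ran from 3.42 to 4.91 and in RV Sham-F from 3.01 to 3.78 (median 3.32), and the ranges overlapped. In RV AOB-F it ran from 2.85 to 4.58 (median 3.98). Timp3, Timp2 and Mmp15 make up most of these sums, so the ratio mainly describes transcripts of those 3 genes, and enzyme activity was not measured.

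Relatives outside the 9 members were read from 3 lists of genes. Of 8 further metalloproteinase genes that passed the count filter, Mmp12, the macrophage elastase gene, passed it only through banded libraries, since it reached 10 reads in no sham library. Its values are therefore given as a description. Mmp12 was at 27.4, 18.3, 1.16, 3.27, 8.42 and 0 normalized counts in RV PAB-F and at most 4.78 in RV Sham-F. In LV AOB-F its highest values, 19.7 and 60.3, were again those of replicates 6 and 7. None of the other 7 was called by edgeR in RV PAB-H, LV AOB-F or RV PAB-F.

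Of 19 ADAM and ADAMTS protease genes tested, 3 were higher in RV PAB-H, where 3.91% of all genes were. These were Adamts2, which encodes an enzyme that trims procollagen (1.12, SE 0.30, edgeR adjusted p = 0.0227), Adamts15 (0.89) and the membrane-bound Adam15 (0.86). Adamts2 had 685.4 and 1034 normalized counts in replicates 1 and 2 and 242.0 to 308.7 in the other 4, against 164.7 to 293.7 in RV Sham-H. Adamts15 had 490.6 and 527.3 in the same replicates and 144.6 to 232.6 in the other 4, against 118.9 to 197.3. Without PAB-H replicate 2 the log2 fold changes of Adamts2, Adamts15 and Adam15 were 0.73, 0.64 and 0.63 with edgeR adjusted p of 0.339, 0.337 and 0.353. Each of the 3 calls therefore rested on that animal, while the directions stayed. That fit called 0.192% of all genes as higher.

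In RV PAB-F 4 of the 19 were higher, where 7.66% of all genes were higher and 3.42% lower, and Adamts3 was lower (-0.81). The procollagen peptidase gene Adamts14 gave 1.59 there (SE 0.36, edgeR adjusted p = 0.00188), and 1.32 without PAB-F replicate 1 (edgeR adjusted p = 0.0355). Without that animal it was the 1 gene of the list still called. In LV AOB-F Adam9 was higher (0.49) and Adamts7 lower (-0.42), 1 of 19 in each direction, which lies below the 8.54% of all genes called as higher and close to the 4.35% called as lower. Adamts3, Adam9 and Adamts7 were named after their values were seen. The median log2 fold changes over the list were 0.31 in RV PAB-H, 0.03 in LV AOB-F and 0.17 in RV PAB-F, against 0.00434, 0.0378 and 0.0162 over all genes.

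Of 21 tested genes for activators, inhibitors and partners of metalloproteinases, 7 were higher in RV PAB-H, 8 in LV AOB-F and 6 in RV PAB-F, and none lower in these, where 3.91%, 8.54% and 7.66% of all genes were higher. Without PAB-H replicate 2, the AOB-F animals 6 and 7 or PAB-F replicate 1 the counts in that order were 0, 0 and 1 of 21, where 0.192%, 1.91% and 2.01% of all genes were called as higher by edgeR. The medians over the list were 0.41 in RV PAB-H, 0.38 in LV AOB-F and 0.53 in RV PAB-F, and 0.33, 0.36 and 0.30 without those animals. Serpinf1 and Pcolce, among others of this list, are PAB-regulated genes the study reported from the same libraries. The RV PAB counts are therefore not independent of that earlier result.

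Lcn2, whose protein binds MMP9, gave 2.52 (SE 0.51, edgeR adjusted p = 0.000859) in LV AOB-F, with 3585 and 2567 normalized counts in replicates 6 and 7 and 92.3 to 323.4 in the other 5. Without these animals it was 0.39 with edgeR adjusted p = 0.424. It was also called in RV AOB-F, at 3.31 (SE 0.56), with 1798 and 1067 normalized counts in the same animals and 27.2 to 57.3 in the other 5, and its log2 fold change there was -0.098 without them (edgeR adjusted p = 1). Plau gave 1.75 (SE 0.33, edgeR adjusted p = 0.00024) in LV AOB-F, again with its highest values, 416.9 and 400.3, in those replicates, and 0.74 without them (edgeR adjusted p = 0.139).

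Serpinf1, a secreted serpin, had 220.9 and 500.8 normalized counts in RV PAB-H replicates 1 and 2 and 74.04 to 97.7 in the other 4, against 33.8 to 75.6 in RV Sham-H. Its log2 fold change of 1.60 (SE 0.36) fell to 0.95 without replicate 2 (edgeR adjusted p = 0.265). Pcolce, which enhances procollagen processing, had 424.6, 233.6, 121.1, 149.5, 154.1 and 110.2 normalized counts in RV PAB-F and 47.02 to 100.6 in RV Sham-F. These groups did not overlap, as was so for 2.71% of all genes. Pcolce gave 1.43 (SE 0.25) there, and 1.06 without PAB-F replicate 1 (edgeR adjusted p = 0.00471). The response of Pcolce to PAB-F was larger in the RV than in the LV by 1.47 (SE 0.35, edgeR adjusted p = 0.0322), and by 1.09 without that animal (edgeR adjusted p = 0.426), which ended the call.

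Between the Sham-F ventricles 13 of the 21 genes were lower and 2 higher in the RV, where 38.6% of all genes were lower and 35.6% higher. The same comparison called 7 of the 19 ADAM and ADAMTS genes as lower and 6 as higher, close to those shares.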

How the data were processed

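RNA of 82 libraries was depleted of rRNA and sequenced as paired reads, and per the labels and the study's methods the authors trimmed with Trim Galore, aligned with STAR to Rnor6.0, and counted with featureCounts, reads over several features not being assigned. The submitters' processing notes also name DESeq2 1.28.1. The authors deposited raw counts, counts divided by size factors (a signal, not used here) and FPKM values per library.

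Raw counts were tested with edgeR 4.0.16 in R 4.3.3 (TMM scaling, filterByExpr by group, which kept 11954 of 17337 genes, 1 mean per group over all 82 libraries, quasi-likelihood test, Benjamini-Hochberg adjustment). FPKM values served only to set genes side by side. The fit was tested on simulated data. Alternatives were DESeq2 1.42.0, its size factors, no filter, a sex covariate, the compared groups alone, a replicate block, the study's criteria and leaving out each of 41 animals. Both ventricles of an animal pair by label, and their deviations correlated at medians of 0.186 to 0.297 within animals against -0.0686 to -0.0142 between animals. Named were all members, at most 4 called genes per list by size of change, and 3 like genes per member. Members and lists were chosen with earlier results of these data known. Replicates are separate animals. Total counts of 6675287 to 19665439 set the counting error. Protein sequences were not used here.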

Additional observations from a re-analysis of the deposited data

Results flagged for a closer look

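In groups of 4 to 10 libraries a value was marked when its gap to the nearest library exceeded Dixon's 95% limit. Of 85 sets of 1 member and 1 group 11 were marked (12.9%). The limit marks about 5% of independent sets of normally distributed values. Here the counts were not logged and the sets share animals, so these shares cannot be set against each other. All 11 were the highest of their group. For Timp1 these were LV Sham-F replicate 4 (151.7 normalized counts) and RV PAB-F replicate 1 (369.9). The LV library of PAB-H replicate 2 was marked for Timp2 (2546), Timp3 (3959), Timp4 (2078) and Mmp2 (1176), and the RV library of the same animal for Timp3 (4877). The LV library of AOB-H replicate 6 was marked for Timp3 (4185), Mmp2 (1205) and Mmp14 (552), and its RV library for Mmp14 (300.8). In LV AOB-H replicate 6 fibroblast markers took 0.15% and endothelial markers 0.496% of the reads, the highest of the group, and their part in the values was not tested.

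The change between the sham ages differed between the ventricles, by the interaction term of the fit across all genes, for Mmp14 (1.09 on the log2 scale, LV minus RV), Mmp15 (0.66), Mmp2 (1.276), Timp2 (0.61) and Timp4 (1.02).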

How the results depend on the processing

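No member that was called changed direction under these alternatives. Outside the members, the log2 fold change of Lcn2 in RV AOB-F was 3.31 and became -0.098 without animals 6 and 7. Fitted to the compared groups alone, 3 members were called in RV PAB-H, 0 in LV AOB-F and 5 in RV PAB-F, against 1, 2 and 2. No share of all genes was recorded for these smaller fits, so their counts have no background to be read against. By the study's criteria there were 2 in RV PAB-H, 1 in LV AOB-F, 1 in RV AOB-F, 3 between the Sham-F ventricles and 2 for the LV age contrast. The shares of all genes meeting these criteria were, in that order, 1.82%, 1.21%, 0.259%, 27.7% and 8.05%. For the Sham-H ventricles, 1 member was called in the reported fit, 2 with sex as a covariate and 2 with DESeq2. The share of all genes called was not recorded for the sex covariate or DESeq2. Replicate numbers run over males first and then females in each group, so same-numbered banded and sham libraries mostly share a sex. They come from different animals, and the sample titles name no litter or day. Correlations of same-numbered libraries ran from -0.141 to 0.249 in the 2 RV PAB comparisons, and the part of sex in them was not tested. With this replicate block 1 member was called in RV PAB-F, and Mmp2 lost its call (log2 fold change 0.88, edgeR adjusted p = 0.0555). The share of all genes called with it was not recorded. With the animal as the replicate block 3 were called between the Sham-H ventricles, where 32.5% of all genes were. The block changed no other count by over 1.5 times.

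Leaving out 1 animal gave 0 to 2 called members in RV PAB-H, 1 to 2 in LV AOB-F, 0 to 3 in RV PAB-F and 1 to 2 between the Sham-H ventricles. Fits chosen after seeing the data gave 0 in LV AOB-F without animals 6 and 7, 0 in LV AOB-F and RV PAB-F and 1 in RV PAB-H for males alone, and 3 in LV AOB-F and 0 in RV PAB-H and RV PAB-F for females alone. Shares of all genes called as higher were 0.192% in RV PAB-H without replicate 2 and 2.01% in RV PAB-F without replicate 1. In LV AOB-F without animals 6 and 7 the share was 1.91%. For the other fits of this paragraph no share was recorded, so nothing is read from their counts. Fits with fewer animals also hold fewer libraries, and other causes of these shifts were not tested. A run on simulated data for RV PAB-F changed 50 genes at each size among 11954, with no animal set apart. Of genes changed by 0.5 on the log2 scale 36% were called, and 72% of those changed by 1. Smaller changes can therefore be missed. The real comparison called 11.1% of genes and held outlying animals, so these shares do not measure its power.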
